A study of Mus musculus with 2 samples.

Results

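The genes described here are the heat shock proteins and cochaperones, 90 genes of the 55357 features counted in each library. They were taken by name: every symbol that begins with Hspa, Hspb, Hspd, Hspe, Hsph or Hsp90, the numbered Dnaja, Dnajb and Dnajc genes, Bag1 to Bag6, and the Cct chaperonin genes, without 16 rows with pseudogene names ("-ps"). The rule used no measured value. The study compared mouse cells with a normal RUNX3 genotype and cells with a RUNX3 knockout genotype, both with colon as the tissue label, with natural killer (NK) cells in colorectal tumours as its subject. RUNX3 is a transcription factor that lymphocytes use. There is 1 single-cell RNA library per genotype, called WT and the library labelled KO, whose cells are called KO-labelled. The sources used here do not give the tumour model, the deleted part of Runx3, the strain, the age or the number of animals behind a library.

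Heat shock proteins keep other proteins folded. Hsp70 proteins hold unfolded segments and are set to work by J-domain proteins (the Dnaj genes, also called Hsp40), Bag proteins release the client again, Hsp90 finishes kinases and receptors, and the Cct ring folds actin and tubulin. Some members are made all the time, while others are switched on by heat shock factor HSF1 when unfolded protein builds up in the cytosol; the endoplasmic reticulum (ER) and the mitochondria have chaperone sets of their own, and ER stress raises the ER set through other factors. Inducible members are also known to respond to the handling of dissociated cells.

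The members were placed in groups by their known roles: 11 inducible, 23 constitutive cytosolic, 7 chaperonin, 9 ER, 9 mitochondrial, and 31 others that include muscle, testis and little studied members. RefSeq promoters (build GRCm38.p6, from 250 bases before to 50 bases after a start site) were found for 73 of the 90 members. Pairs of the units that HSF1 binds were searched on both strands in both orders, GAANNTTC and TTCNNGAA. The order TTCNNGAA was present in 8 of 73 members (10.96%) and in 9.60% of 27025 genes, so its shares were close. By group it was in 2 of 10 inducible, 1 of 18 constitutive cytosolic, 1 of 8 ER and 2 of 6 chaperonin members. Among mitochondrial members it was in 2 of 6, and among other members in 0 of 25. The short inverted repeat is the order GAANNTTC. It was present in 7 of 10 inducible members, in 2 of 18 constitutive cytosolic members, in 0 of 8 ER members, in 1 of 6 chaperonin, 2 of 6 mitochondrial and 5 of 25 other members, and in 9.04% of 27025 genes with a promoter in the table. These are the sites of the 7 inducible members, in capitals, with 10 bases on either side where the window reaches so far, on the strand of the gene, with 1 of 2 sites for Hspb1:
Hspa1a, chr17:34972243-34972270, minus strand: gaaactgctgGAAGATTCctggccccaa
Hspa1b, chr17:34959325-34959352, minus strand: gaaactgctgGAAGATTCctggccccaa
Hspb1, chr5:135887792-135887819, plus strand: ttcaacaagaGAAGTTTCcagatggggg
Dnaja1, chr4:40722334-40722361, plus strand: aaagcctctaGAAAATTCtacgaggctc
Hsph1, chr5:149636278-149636305, minus strand: gcagattctgGAAAGTTCtcctcagtag
Hspb8, chr5:116422845-116422872, minus strand: gaagccaggaGAAGTTTCtaggctcgcg
Bag3, chr7:128523615-128523632, plus strand: gatgggaccaGAAGTTTC

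The longer run of 3 units (GAA, TTC and GAA, each 2 bases apart), which contains the short repeat, was present in 0.662% of the genes and in 4 of 73 members: Hspd1, Hspe1, Dnajb6 and Hsph1. Hspd1 and Hspe1, which encode the mitochondrial chaperonin and its lid, lie head to head and share this stretch. It is shown with its 2 overlapping matches in capitals, as the only members of their group with such a run:
Hspd1, chr1:55088054-55088081, minus strand: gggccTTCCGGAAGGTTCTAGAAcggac
The ER stress element (CCAAT, 9 bases of any kind, CCACG) was present in 3 of 8 ER members, in none of the other members and in 0.137% of the genes. Its matches are shown in capitals with 5 bases on either side, because Hspa5 and Hsp90b1 had the highest ratios of the ER members below:
Hspa5, chr2:34772020-34772048, plus strand: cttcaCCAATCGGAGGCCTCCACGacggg
Hsp90b1, chr10:86705633-86705661, minus strand: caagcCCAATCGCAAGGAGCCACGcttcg
Hsp90b1, chr10:86705528-86705556, plus strand: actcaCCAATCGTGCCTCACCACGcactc
Dnajc3, chr14:118937822-118937850, plus strand: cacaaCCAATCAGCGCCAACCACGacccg
To show how alike the inducible Hsp70 copies are, the 250 bases upstream of Hspa1a are given, with the short repeat in capitals; the same stretch of Hspa1b differs at 3 of 250 bases:
Hspa1a, chr17:34972157-34972406, minus strand: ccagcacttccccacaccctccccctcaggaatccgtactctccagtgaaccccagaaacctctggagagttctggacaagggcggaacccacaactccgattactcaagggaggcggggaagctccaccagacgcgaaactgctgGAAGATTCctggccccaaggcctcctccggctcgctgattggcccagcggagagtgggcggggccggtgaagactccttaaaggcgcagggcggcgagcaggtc
A match is a description of the letters, and no match says only that these letters are not in the window.

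The files held 8800 WT barcodes with 85367638 UMIs (unique molecular identifiers, which count captured RNA molecules) and 6573 barcodes labelled KO with 62465176 UMIs, and 17 barcode sequences occurred in both. After filtering, 8343 and 5233 cells remained, with median depths of 8281 and 9402 UMIs and median mitochondrial shares of 0.508% and 0.417%. Cell types were gated by marker genes, and 9 gates had at least 50 cells in each library, from 4223 and 2648 macrophage cells down to 97 and 86 CD4 T and 192 and 63 NK cells. The colon label is not matched by epithelial cells: at least 3 of 9 epithelial markers were found in 1 and 2 cells. Of the monocyte cells, 229 of 302 and 225 of 282 also carried at least 5 of 10 macrophage markers, as did 78 of 173 and 76 of 141 cells of the type 2 dendritic cell (cDC2) gate. The libraries differ in sex: 6629 WT cells were male-type (a Y-linked UMI and no Xist) and 1 female-type, whereas the library labelled KO held 1255 male-type, 2863 female-type and 430 cells with both. With 1 library per group no difference has a replicate check. Every interval below is a 95% interval for counting error only, and no test across libraries could be run.

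Over all cells, the heat shock and cochaperone genes made up a like share of RNA in both libraries, 0.828% and 0.833% of UMIs in WT and KO-labelled cells. Of the 90 members, 3 (Dnajb7, Cct8l1 and Hspb3) had no UMI, where the floor used for a count of 0 is 3 UMIs per library, 9 had fewer than 50 UMIs over both libraries, and 78 had at least 50 and were compared. Levels are UMIs per 1000000 (CPM), and ratios are log2 of KO-labelled over WT levels after adding 5 CPM to both, which understates the ratio of low genes. None of the 78 was higher by 0.5 or more, against 1.41% of 16344 genes, and 1 was lower by 0.5 or more, against 1.29%. The median log2 ratio was -0.01 for the 78 members and -0.01 for all genes. Of the 16344 genes, 7393 had ratios above 0 and 8951 below 0. By group it was -0.04 for the inducible members, -0.04 for the constitutive cytosolic, -0.02 for the chaperonin, 0.06 for the ER and -0.00 for the mitochondrial members.

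**Figure D1:**
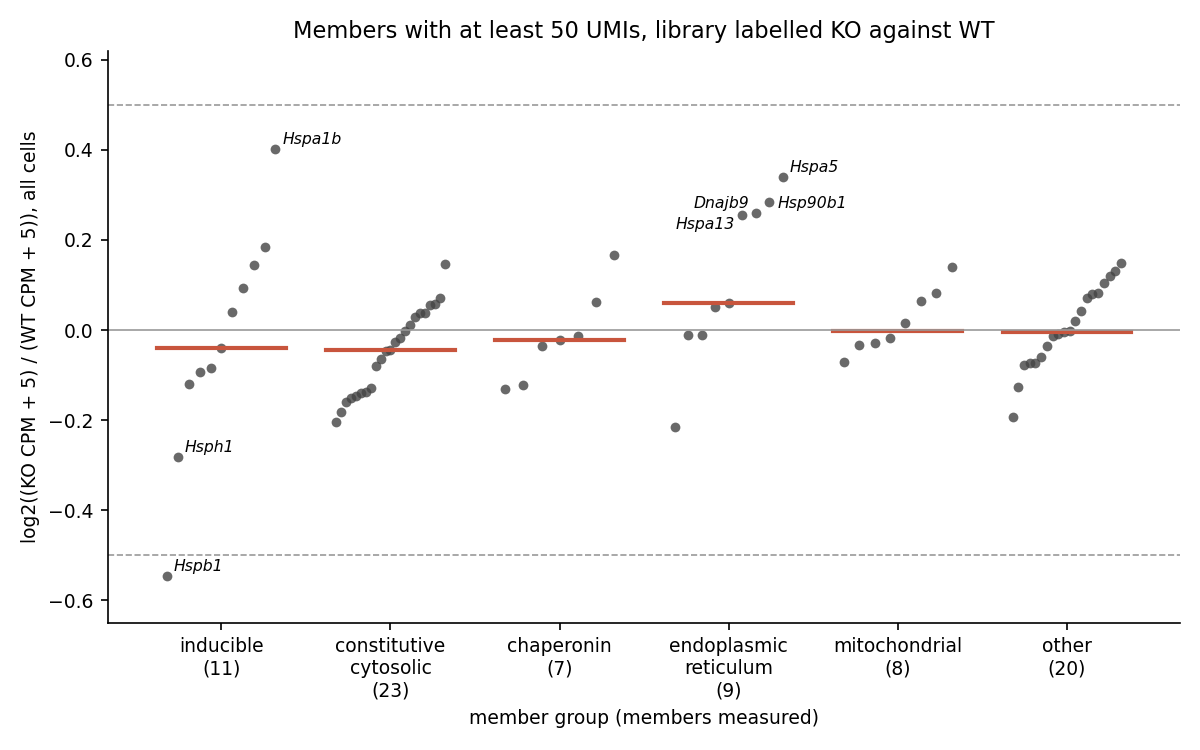
Log2 ratio, KO-labelled over WT, over all cells, with 5 CPM added to both, for the 78 members with at least 50 UMIs, by group. Each point is 1 gene, red bars are group medians and dashed lines mark 0.5 and -0.5. Only Hspb1 lies outside the dashed lines, Hspa1b is the highest point, and 4 ER members lie above 0.25.

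The inducible members moved in both directions. Hspb1, the small heat shock protein Hsp27, had 13.7 CPM in WT (12.9 to 14.6) and 7.80 CPM in KO-labelled cells (7.08 to 8.57). Its log2 ratio of -0.55 was the lowest of all members. Hsph1, an Hsp110 protein that recharges Hsp70, had 73.7 and 59.7 CPM, a log2 ratio of -0.28. Hspa1b, one of the near-identical inducible Hsp70 genes, had 58.5 (56.8 to 60.3) and 78.9 CPM (76.6 to 81.3), the highest log2 ratio of all members at 0.40. Its neighbour Hspa1a had 156 and 173 CPM, a log2 ratio of 0.15. Thus the Hsp70 pair was higher and its partner Hsph1 lower in the library labelled KO, in sums to which few cells contributed most of the UMIs. The other inducible members stayed within 0.20: Hspa4l, an Hsp110 relative, at 0.18, Dnajb4, a J-domain protein, at 0.09, Dnaja1, the farnesylated J-domain partner of Hsp70, at 0.04, and Hsp90aa1, the inducible Hsp90, at -0.04. Bag3, which links Hsp70 to autophagy, was at -0.08, Hspb8, its small heat shock partner, at -0.09 and Dnajb1, the main cytosolic Hsp40, at -0.12. Immediate early genes, which respond to handling, were higher in the same library: 12 of 13 had ratios above 0, the median was 0.37 and their summed level was 9430 CPM in WT and 11704 CPM in the library labelled KO. Their part in the ratios of the inducible members was not tested.

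The constitutive cytosolic members are the largest share of the members' UMIs, 4039 and 3877 CPM in sum. Of these, 15 of 23 had ratios below 0, against 8951 of 16344 genes. Hsp90ab1, the constitutive Hsp90, had 1640 CPM (1631 to 1649) in WT and 1487 CPM (1477 to 1498) in KO-labelled cells, or -0.14 on the log2 scale. Hspa8, the constitutive Hsc70, had 1160 (1152 to 1168) and 1208 CPM (1199 to 1217), a log2 ratio of 0.06. Among the other abundant members, Dnajb6, a J-domain protein that holds back aggregation, stood at -0.15, Hspa4, an Hsp110 protein, at -0.14, Dnajc8, a splicing-associated member, at -0.04 and Dnaja2 at 0.01. The most extreme were Dnaja4, at 2.32 and 1.35 CPM with a log2 ratio of -0.20, and Bag1, an Hsp70 release factor, at 76.4 and 85.1 CPM with a ratio of 0.15. The low members Bag2 and Dnajc6, the auxilin that uncoats vesicles, stood at 0.07 and -0.00. With 5 CPM added, all of these differences are smaller than 0.25 on the log2 scale. Without the added level, the ratio of Dnaja4 was 0.582 (0.438 to 0.767), from 176 and 75 UMIs.

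The chaperonin and the mitochondrial members were close to level. The 7 Cct subunits, which assemble into 1 ring complex, summed to 901 and 889 CPM, with ratios from -0.13 for Cct7 to 0.17 for Cct6a. Of the 7 ratios, 5 were below 0, against 8951 of 16344 over all genes. The mitochondrial members summed to 768 and 774 CPM. Hspe1 had 322 and 318 CPM, Hspd1 125 and 131 CPM, and Hspa9, the mitochondrial Hsp70, 107 and 108 CPM. The widest ratios of this group were 0.14 for Dnajc19, part of the protein import motor, and -0.07 for Dnajc15, its paralog; Dnajc28 had 23 and 22 UMIs and was not compared. The 20 measured other members ranged from -0.19 for Dnajc4 to 0.15 for Dnajc21, a ribosome assembly factor, with a median of -0.00.

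The ER members were the group with the highest sum ratio. Their summed level was 1351 CPM in WT and 1556 CPM in the library labelled KO, a log2 difference of 0.20. Of the 9 members, 6 had ratios above 0, against 7393 of 16344 genes, and the group median was 0.06. The difference in the sum lay in the most abundant members, Hspa5 and Hsp90b1. Hspa5, the ER Hsp70 BiP, had 396 CPM (391 to 400.2) and 502 CPM (496 to 508), a log2 ratio of 0.34. Hsp90b1, the ER Hsp90 Grp94, had 471 (466 to 475) and 574 CPM (568 to 580), a log2 ratio of 0.28. These genes, whose promoters carry the ER stress element shown above, were joined by Dnajb9, a J-domain partner of BiP, at 43.3 and 52.9 CPM (0.26), and Hspa13, a microsomal Hsp70 relative, at 24.7 and 30.5 CPM (0.25). The third member with that element, Dnajc3, an inhibitor of the kinase PERK, stood at 0.06. Dnajc1, an ER membrane J protein, went the other way, from 171 to 147 CPM (-0.21), and Dnajc10, Dnajb11 and Dnajc25 stood between -0.01 and 0.05.

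Other genes of the same pathways were read from lists drawn up with the members. Of 12 genes of the ER stress response, 10 had ratios above 0, none reached 0.5 and the median was 0.09, led by the disulphide isomerase gene Pdia4 at 92.1 and 116 CPM (0.32) and the stress transcription factor gene Xbp1 at 112 and 135 CPM (0.26). Calreticulin, the gene Calr, was lower at 809 and 701 CPM (-0.21). The heat shock factor genes were low: Hsf1 had 23.1 and 19.2 CPM (-0.21) and Hsf2 stood at a ratio of 0.16. The 12 partners of Hsp90 and Hsp70 split evenly, 6 above 0 and 6 below, with a median of 0.01, and the 7 other heat shock factor targets had 3 above 0 and a median of -0.04. The 3 mitochondrial stress genes, Trap1, Lonp1 and Clpp, lay between -0.13 and 0.02. In these lists no gene reached 0.5 in either direction over all cells, and the immediate early list had 3 that did.

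Between cell types the levels differed far more than between libraries, and mesenchymal cells, gated by collagen and other matrix genes, stood highest of the 9 gates compared. Highest and lowest below refer to these 9 gates, and gates with under 50 cells in a library, such as type 1 dendritic cells (cDC1, 77 and 39 cells), were not ranked. The labels do not say whether the mesenchymal cells are host or tumour cells. Members made up 1.42% and 1.28% of UMIs in WT and KO-labelled mesenchymal cells. In the other gates compared the shares ran from 0.693% to 0.805% in WT and from 0.664% to 0.823% in KO-labelled cells. Of 66 members with at least 500 UMIs over both libraries, 26 were highest in mesenchymal cells in both libraries, and 40 had the same highest gate in both. The same counts were not made for all genes, so they do not set the members apart from other genes. Hsp90ab1 reached 4868 CPM there in WT and 4406 CPM in KO-labelled cells, and its lowest gate, regulatory T cells, had 1105 and 952 CPM. Hsp90aa1 reached 1004 and 764 CPM in mesenchymal cells. The mitochondrial members Hspd1 (409 and 343 CPM), Hspa9 (314 and 247 CPM) and Hspe1 (647 and 649 CPM) and all 7 Cct genes also had their highest gate there in both libraries. Median depth was 13964.5 and 16573.5 UMIs in mesenchymal cells against 9625 and 11130.5 in macrophages, and 162 of 176 WT and 91 of 106 mesenchymal cells labelled KO had neither Xist nor a Y-linked UMI. The part of either in these levels was not tested.

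Inducible members did not share 1 pattern across cell types. Dnajb1 (253 and 243 CPM), Hsph1 (221 and 159 CPM) and Bag3 (92.98 and 74.0 CPM) were highest in mesenchymal cells in both libraries. Hspb8 was all but limited to that gate in the gates compared, with 53.0 and 34.0 CPM from 147 and 73 UMIs, against 2 and 4 UMIs in macrophages and no UMI in any of the other 7 gates. Hspa1a did the opposite: mesenchymal cells had the lowest level of the 9 gates, 5.77 and 12.6 CPM, and macrophages the highest, 186 and 198 CPM. In cDC2 cells it had 152 and 198 CPM, so these gates were level in the library labelled KO. The small cDC1 gate had more, 295 and 262 CPM. For both copies summed, regulatory T cells were lowest in WT (26.6 CPM) and NK cells in the library labelled KO (38.1 CPM). The sum was highest in macrophages in WT (248 CPM) and in cDC2 cells in the library labelled KO (316 CPM). Hspb1 was highest in macrophages, at 15.9 and 8.87 CPM, and had 0 to 6.32 CPM in the other 8 gates, while the cDC1 gate had 70 and 0 UMIs (60.7 CPM in WT). Dnaja1 was highest in CD4 T cells in WT (209 CPM) and in CD8 T cells in the library labelled KO (278 CPM), and lowest in mature dendritic cells in both (65.5 and 92.9 CPM).

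**Figure D2:**
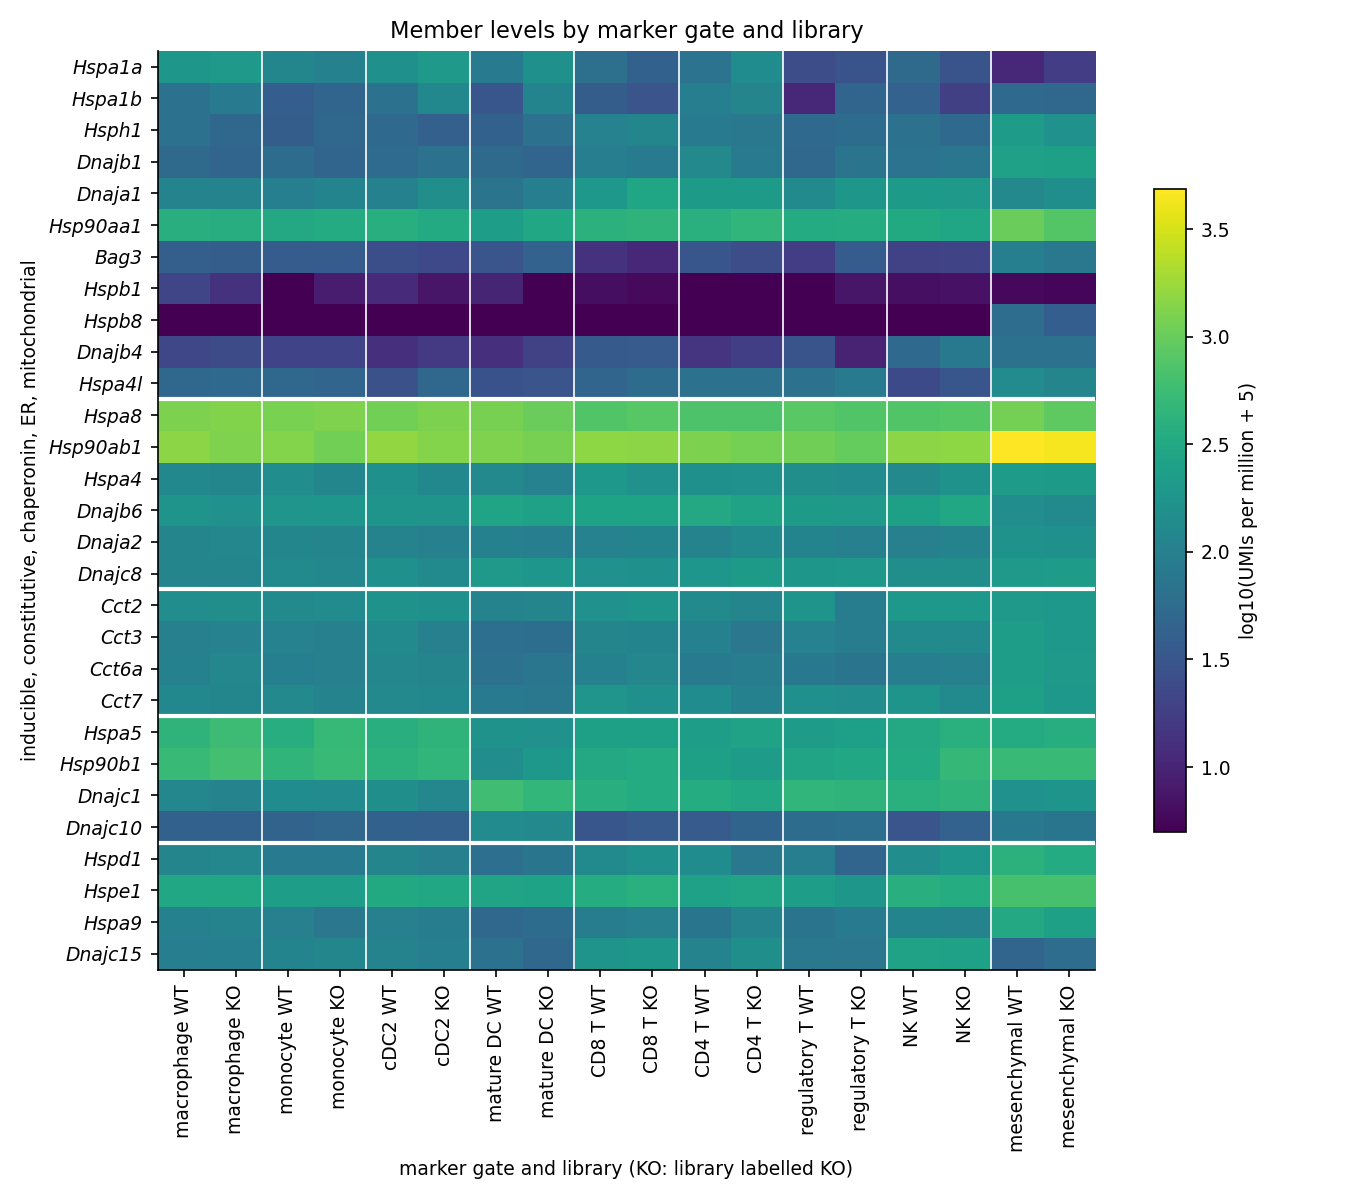
Levels of 29 members (rows, italic) in 9 marker gates of each library (columns), as log10 of CPM plus 5; white lines part the groups, from inducible at the top to mitochondrial at the bottom. Hsp90ab1 in mesenchymal cells is the brightest square, at 4868 and 4406 CPM, while Hspa1a is darkest there, and Hspb8 is dark everywhere else.

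Several less known members were highest in the same gate in both libraries. Dnajc12, a J-domain partner of aromatic amino acid hydroxylases, had 73.1 and 100.3 CPM in mature dendritic cells, gated by Ccr7 and Fscn1, and 0.931 to 17.5 CPM in the other 8 gates. Dnajc1 was highest in the same cells (588 and 470 CPM) and lowest in macrophages (114 and 104 CPM), and Dnajc10, an ER reductase, also peaked in mature dendritic cells (134 and 124 CPM). These cells had the lowest Hspa5 (167 and 159 CPM) and Hsp90b1 (141 and 191 CPM) of the 9 gates, so the ER members did not share 1 order of cell types. Dnajc15 was highest in NK cells, at 259.6 and 251 CPM, against medians over gates of 104 and 93.2 CPM. Dnajb6 was lowest in mesenchymal cells (142 and 128 CPM), and Dnajb14, an ER membrane J protein, was highest of the 9 gates in cDC2 cells (78.3 and 72.2 CPM), with 94.5 and 74.9 CPM in the cDC1 gate.

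The inducible and the constitutive Hsp70 genes were then set against each other within each library, as UMIs of Hspa1a and Hspa1b over UMIs of Hspa8. UMI sums of different genes also carry transcript length and capture, so this quotient is read only between gates and libraries. Over all cells it was 0.185 (0.182 to 0.188) in WT and 0.209 (0.205 to 0.213) in KO-labelled cells. Macrophages had 0.197 and 0.210. Mesenchymal cells had 0.0469 (0.0395 to 0.0553) and 0.0648 (0.0535 to 0.0778), the lowest of the gates with over 100 inducible UMIs in each library. Lower values stood in gates with fewer. Regulatory T cells in WT had 0.0320 (0.0169 to 0.0554) from 13 inducible UMIs, and NK cells labelled KO 0.0478 (0.0289 to 0.0749) from 20. The quotient of Dnajb1 over the constitutive Dnaja2 was highest in mesenchymal cells, 1.55 and 1.59 against 0.591 and 0.536 over all cells. Hsp90aa1 over Hsp90ab1 varied less, from 0.182 in mature dendritic cells to 0.316 in CD4 T cells in WT and from 0.173 in mesenchymal cells to 0.398 in CD4 T cells in the library labelled KO. Hspa8 itself ran from 714 to 1259 CPM over the WT gates and from 709 to 1316 CPM over the gates labelled KO, lowest in CD4 T cells and highest in macrophages in both, among the 9 gates compared; the cDC1 gate had 1577 and 1394 CPM.

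The inducible Hsp70 sum differed between the libraries in opposite directions in different cells. Mature dendritic cells had 105 CPM (87.7 to 126) in WT and 262 CPM (230.3 to 297) in KO-labelled cells, a ratio of 2.48 (1.99 to 3.11). cDC2 cells had 215 and 316 CPM, a ratio of 1.47 (1.30 to 1.67), and macrophages 248 and 277 CPM, a ratio of 1.11 (1.08 to 1.15). NK cells went the other way, with 87.6 and 38.1 CPM, a ratio of 0.435 (0.255 to 0.705), and so did CD8 T cells with 92.0 and 62.9 CPM, a ratio of 0.683 (0.517 to 0.892). Monocytes had 146 and 141 CPM, and mesenchymal cells 53.3 and 57.3 CPM, with intervals of the ratio that hold 1. These sums rest on few cells. In regulatory T cells the ratio of 2.53 came from 13 and 27 UMIs, of which 1 cell of the library labelled KO held 19, and the ratio was 0.716 without the 3 highest cells of each library. In CD4 T cells the ratio of 1.59 came from 66 and 97 UMIs in 8 and 16 cells, and became 5.29 without the 3 highest cells of each library, since 8 of the 66 WT UMIs lay outside those. The mature dendritic ratio became 1.84, the cDC2 ratio 1.79, the NK ratio 0.353 and the CD8 T ratio 0.714.

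**Figure D3:**
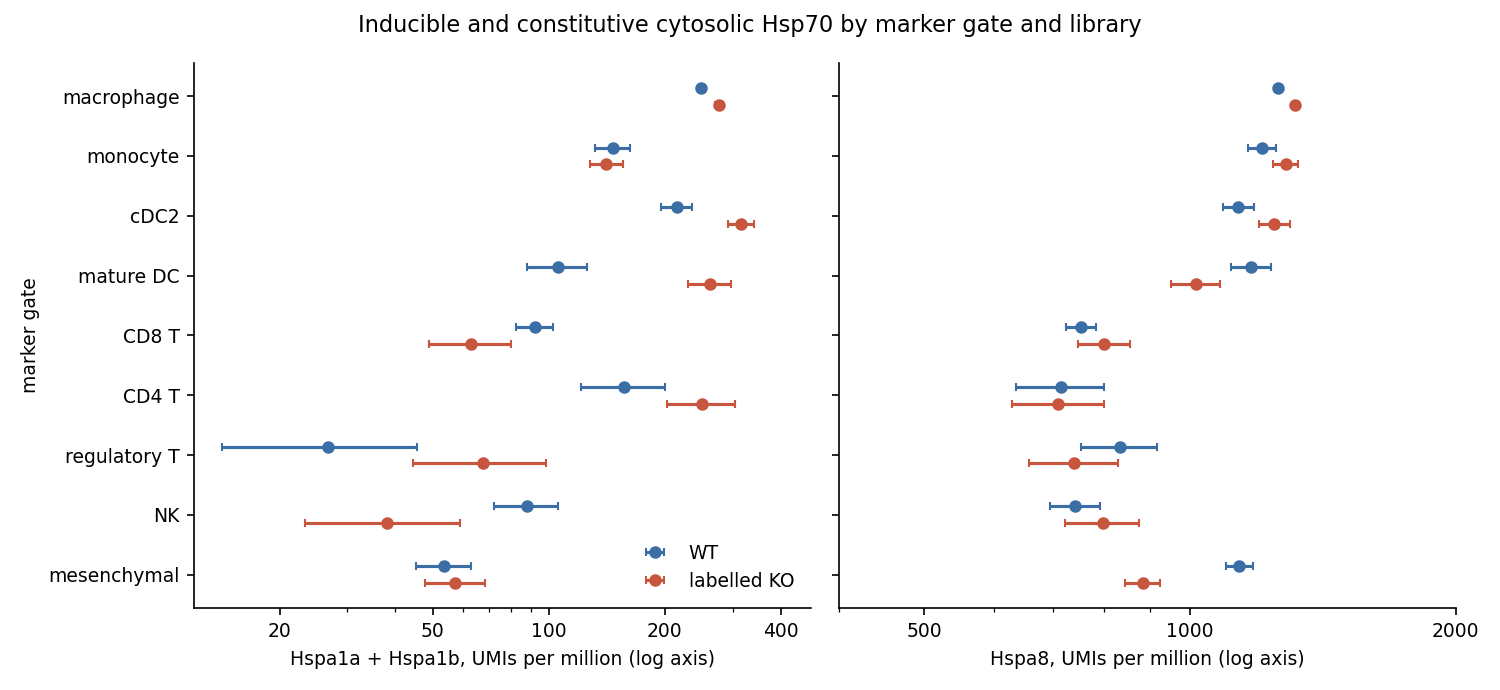
Left, summed level of Hspa1a and Hspa1b, and right, level of Hspa8, in UMIs per 1000000 on log axes, for 9 marker gates (rows) in WT (blue) and the library labelled KO (red); bars are 95% Poisson intervals for counting error only. Hspa1a and Hspa1b span 26.6 to 316 CPM and part the libraries most in regulatory T (13 and 27 UMIs), mature dendritic and NK cells, while Hspa8 spans 709 to 1316 CPM.

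The counted proportion of the 2 inducible Hsp70 copies differed between gates. Hspa1a (chr17:34969190-34972156) and Hspa1b (chr17:34956436-34959238, both minus strand, mm10) are neighbours with the near-identical upstream stretch shown above. Macrophages had 2.99 Hspa1a UMIs per Hspa1b UMI (2.87 to 3.13) in WT and 2.52 (2.40 to 2.64) in KO-labelled cells. Mesenchymal cells had 0.121 (0.0673 to 0.204) and 0.281 (0.176 to 0.435), from 16 and 132 UMIs in WT and 27 and 96 in the library labelled KO. The counted order of the copies was therefore reversed in mesenchymal cells of both libraries. Hspa1b also had more UMIs than Hspa1a in CD4 T cells of WT (39 and 27) and in KO-labelled regulatory T cells (17 and 10), with intervals that hold 1. Reads of near-identical genes can be split or dropped in counting, so each value given for Hspa1a or Hspa1b alone is uncertain, and the sum of both does not depend on how reads were split between them. Dropped reads would lower the sum as well.

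Within the gates, 0 to 5 members passed a log2 size of 0.5 in a direction, given here beside the share of all genes in the gate that did. In macrophages, 0 of 72 were higher (1.52% of 13469 genes) and Hspb1 alone was lower, at -0.59 (1.34%); Hspa5 (0.36) and Hspa1b (0.32) stood highest, and Hsph1 (-0.39) and Hsp90ab1 (-0.20) lowest after Hspb1. In monocytes 0 of 59 were higher (3.73% of genes) and 2 were lower (7.66%), Dnajc17, a splicing-linked member, at -0.67 and Dnajc4 at -0.50; Hspa5 stood at 0.45, Hsph1 at 0.42. In cDC2 cells 5 of 55 were higher (2.86%): Hspa4l (0.87), Hspa1b (0.87), Hspbap1, an Hsp27-binding protein (0.59), Dnaja1 (0.54) and Dnajb9 (0.51). Hspbp1, an Hsp70 release factor, was the 1 lower (-0.51, against 6.62%), followed by Dnajc7 (-0.47) and Cct3 (-0.40). Of these 5, 3 are inducible members. In mature dendritic cells 5 of 46 were higher (8.06%): Hspa1b (1.85), Hspa1a (0.92), Bag6, a factor for membrane protein targeting (0.80), Hsph1 (0.64) and Bag3 (0.53). None was lower (7.79%), and Dnajc13, an endosomal member, was lowest at -0.43. The median of the 8 inducible members measured there was 0.50, against -0.13 for the 15 constitutive ones and -0.03 for all genes.

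The lymphocyte gates had fewer UMIs. In CD8 T cells 2 of 60 were higher (3.66%), Hspb11, a cilia transport protein, at 0.68 and Dnaja1 at 0.53, and 2 were lower (6.14%), Dnajb2, a ubiquitin-binding J protein, at -0.78 and Hspa1a at -0.59. In CD4 T cells 3 of 35 were higher (8.45%), Hspa1a (64.3 and 138.8 CPM), Bag1 (0.80) and Hspa9 (0.59), and 3 were lower (11.1%), Cct5 (-0.92), Hspd1 (-0.82) and Dnajb1 (-0.53). In regulatory T cells Bag1 alone of 33 was higher (0.73, against 7.94%), and 5 were lower (10%): Hspd1 (90.2 and 42.5 CPM), Cct2 (-0.96), Dnajc9, a histone chaperone (-0.76), Dnajc13 (-0.63) and Dnajc2, a ribosome-bound member (-0.58). Bag1 was higher and Hspd1 lower in both the CD4 T and the regulatory T gate, from 17 to 57 UMIs a gene and library. Both gates come from the same libraries, so this is no repeat. The interval of the Bag1 ratio was 1.00 to 3.40 in CD4 T and 1.02 to 2.92 in regulatory T cells. In NK cells 2 of 42 were higher (5.08%), Dnajb4 (0.62) and Hsp90b1 (334 and 488 CPM, 0.54), and 2 were lower (7.85%), Hspa1b (-1.26) and Hspa1a (-0.85). All 7 ER members measured in NK cells had ratios above 0, with a median of 0.31, while 2 of 7 inducible members did. Over all genes there, 2392 of 5044 were above 0 and the median was -0.02. These ER values rest on 63 KO-labelled NK cells. The highest cell there held 51 of 256 Hsp90b1 UMIs, and the highest for Hspa5 held 36 of 202. In mesenchymal cells 0 of 66 were higher (2.18%) and 5 were lower (4.25%): Dnajc27 (-0.66), Hspa12a, a distant Hsp70 relative (-0.64), Hspb8 (-0.57), Dnajc21 (-0.57) and Dnajc5, the vesicle protein CSP (-0.53). There 8 of 9 inducible members had ratios below 0, with a median of -0.27. Over all genes in that gate, 5513 of 9307 were below 0 and the median was -0.05.

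The ER sum was higher in the library labelled KO in macrophages (1368 and 1623 CPM, a log2 difference of 0.25), monocytes (1269 and 1475 CPM, 0.22) and NK cells (1308 and 1636 CPM, 0.32), and level or lower in mesenchymal (0.02), CD8 T (-0.04) and mature dendritic cells (-0.13). The NK value rests on 63 KO-labelled cells. The summed immediate early level was higher in the library labelled KO in all 9 gates, and its part in the ER ratios was not tested. Whether the gates differ in their ER ratio was not tested, as there is 1 library per genotype.

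Several inducible transcripts lay in few cells. Cells were ranked by the fraction of their UMIs that came from a gene. The highest 835 of 8343 WT and 524 of 5233 KO-labelled cells were taken for each gene. They held 84.3% of the Hspa1a UMIs in WT and 78.6% in KO-labelled cells, and 94.99% and 90.4% of those of Hspa1b. Hsph1 followed with 70.1% and 65.3%, Bag3 with 65.8% and 63.8% and Dnajb1 with 56.0% and 56.2%. The inducible Dnaja1 (38.02% and 36.8%) and Hsp90aa1 (38.1% and 34.5%) were less concentrated, nearer to the constitutive members. The constitutive Hspa8 had 24.0% and 23.6%, Hsp90ab1 28.9% and 32.8%, Hspa5 26.02% and 25.8% and Cct2 25.5% and 24.98%, although low counts alone raise such a share. In macrophages thinned to 5000 UMIs a cell, which left out 433 and 294 shallower cells, 269 of 3790 WT cells (7.10%, 6.30 to 7.96%) and 186 of 2354 cells labelled KO (7.90%, 6.84 to 9.07%) had at least 5 UMIs of Hspa1a and Hspa1b together. They held 80.9% and 77.2% of all such UMIs. The class is a range and not a cell type: 39 and 46 cells had 4 such UMIs, and 39 and 26 had 5.

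Several of the other inducible members were higher in the same macrophages, in both libraries. Per cell and at equal depth, the cells with at least 5 inducible Hsp70 UMIs had 80.1 times as much Hspb1 as cells with none in WT (57.7 to 114) and 50.6 times in the library labelled KO (29.0 to 94.3). Hsph1 was 17.1 and 9.11 times as high, Bag3 7.84 and 6.69, Dnaja1 5.79 and 4.20, Hsp90aa1 5.02 and 3.54, and Dnajb1 4.44 and 4.12. All 6 of these are inducible members. Outside the inducible group, Hspd1 stood at 2.83 and 2.43, its partner Hspe1 at 2.14 and 1.93, Dnajb9 at 2.34 and 2.34 and Hspa5 at 2.02 and 1.54. Hspa8 (1.57 and 1.31) and Hsp90ab1 (1.60 and 1.39) were little higher, Hsp90b1 was level (1.01 and 1.01), and the 7 Cct genes lay between 0.812 and 1.22. Among 7603 genes with at least 100 UMIs in each library, 74 (0.973%) were at least 2 times as high in both, and 8 of 58 members were. The cells were chosen by 2 members, so this is a description of what else they hold. Of the immediate early genes, Jun was 2.37 and 2.65 times as high in these cells and Fos 0.887 and 0.968 times; their median mitochondrial share was 0.464% and 0.439%, against 0.506% and 0.413% in cells with none.

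**Figure D4:**
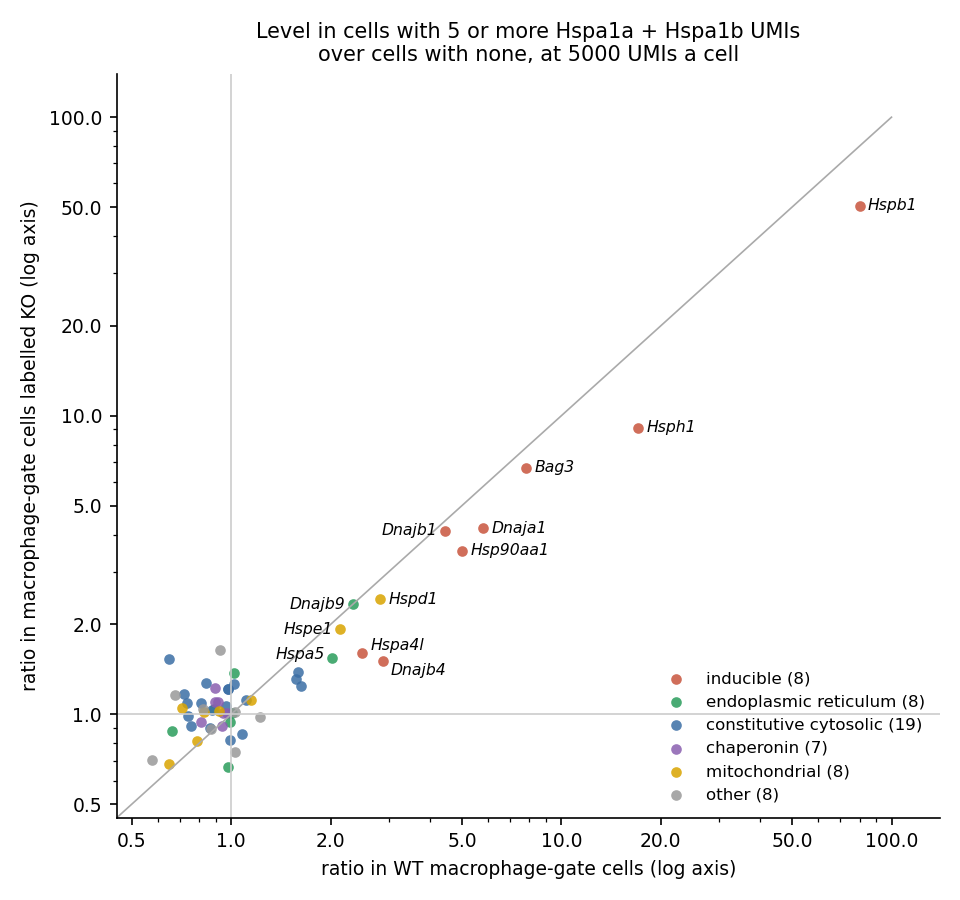
For 58 members, level per cell in macrophages with at least 5 UMIs of Hspa1a and Hspa1b over macrophages with none, at 5000 UMIs a cell, in WT (x) and the library labelled KO (y), both on log axes; colours are member groups and the grey diagonal marks equal ratios. Hspb1 stands at 80.1 and 50.6, the other inducible members lie above 1.5 in both libraries, and chaperonin members lie near 1.

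Since the library labelled KO holds cells of both sex types and WT almost none that are female-type, the levels were also read by type. In macrophages the inducible Hsp70 sum was 222 CPM in male-type WT cells (218 to 227), 192 CPM in male-type cells labelled KO (183 to 201) and 324 CPM in female-type cells labelled KO (316 to 332). Male-type cells alone thus gave a lower level in the library labelled KO, and the female-type cells carried the higher one. cDC2 cells showed 206, 123 and 433 CPM, and mature dendritic cells 100.3, 106 and 314 CPM, listed alike, so the male-type level was not lower in the latter gate. The KO-labelled levels there rest on 42 male-type and 78 female-type cDC2 cells, and on 22 and 59 mature dendritic cells. Of thinned macrophages, 6.62% of male-type WT cells, 4.15% of male-type and 9.76% of female-type cells labelled KO had at least 5 inducible Hsp70 UMIs. WT macrophages with no sex call had 455 CPM. The ER pair behaved otherwise: Hspa5 and Hsp90b1 together had 929 CPM in male-type WT macrophages (919 to 939), 1138 CPM in male-type (1116 to 1161) and 1182 CPM in female-type cells labelled KO (1166 to 1198). Sex type and animal cannot be told apart in the library labelled KO.

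**Figure D5:**
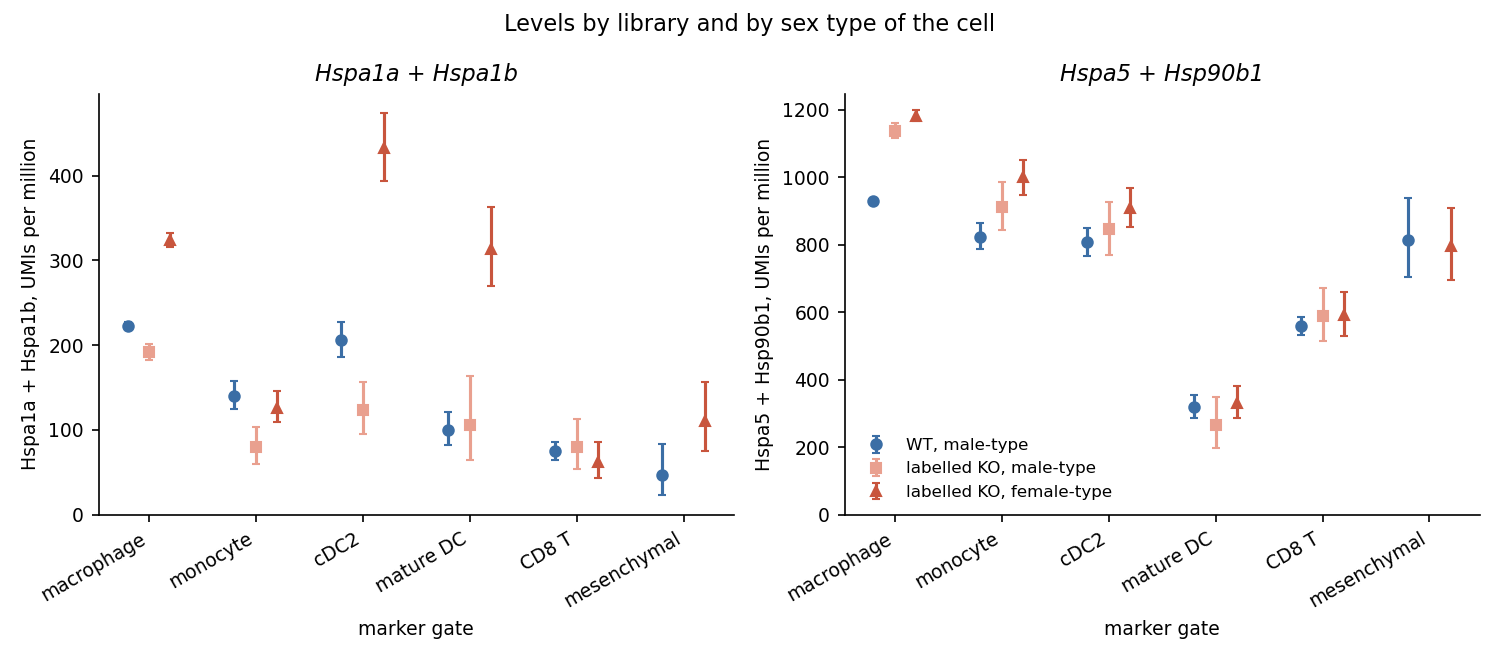
Summed levels in UMIs per 1000000 of Hspa1a and Hspa1b (left) and of Hspa5 and Hsp90b1 (right) by marker gate, in male-type WT cells (circles), male-type cells labelled KO (squares) and female-type cells labelled KO (triangles); bars are 95% Poisson intervals and a gate is drawn where the type has at least 10 cells. On the left the female-type cells stand apart in macrophages (324 CPM), cDC2 (433 CPM) and mature dendritic cells (314 CPM), and on the right both types labelled KO lie above WT in macrophages.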

How the data were processed

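Single-cell RNA sequencing counts of 2 mouse libraries, 1 per genotype, were analysed. The authors deposited raw UMI counts per gene and barcode, made with Cell Ranger 8.0.1 per the file headers; mm10 and Seurat 3 are named in the submitters' processing notes. Libraries were made on microwells with barcode beads, per the labels' protocols. The sources used here give no earlier filter or doublet removal.

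Barcodes were kept with at least 500 UMIs, 200 genes and at most 25% mitochondrial UMIs. The filter removed 0 WT and 1060 barcodes labelled KO. The doublet caller in scanpy 1.11.5 marked 0% and 0.0362%, so the highest 5% of scores were left out, 457 and 280 barcodes. Cells were gated by detected markers, with thresholds set after marker counts were seen (for example 7 of 10 for macrophages, 4 of 9 for T cells, 4 of 10 for NK and for mesenchymal cells); lymphoid or mesenchymal cells with at least 5 macrophage markers went to a mixed class, not compared. The members and lists were chosen with earlier results of these data known. Counts were summed per gate and library as UMIs per 1000000, with 95% exact Poisson intervals for sums, exact binomial (Clopper-Pearson) intervals for shares and exact conditional binomial intervals for ratios. PCR and cell-to-cell spread are not covered by them. Named genes were all inducible members, in other groups the 5 highest and 3 lowest levels, and the highest and lowest ratios, 5 over all cells and 3 per gate; others were chosen after their values were seen. The scripts were tested on simulated data. The alternatives tried were other cell, doublet and count filters, added levels, scalings, thinning, gate weights and sex types; leaving out cells of both types, and the highest cells, was chosen after seeing the data.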

Additional observations from a re-analysis of the deposited data

Results flagged for a closer look

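The summed level of Hspa1a and Hspa1b, the inducible Hsp70 genes, drew attention because its ratio of KO-labelled over WT cells lay above 1 in some marker gates and below 1 in others, each with a counting interval that leaves out 1. The ratio was 1.11 in macrophages, 1.47 in cDC2 cells, 2.48 in mature dendritic cells, 1.59 in CD4 T cells and 2.53 in regulatory T cells, and it was 0.683 in CD8 T cells and 0.435 in NK cells. The difference between gates was not tested, as each genotype has 1 library. Without the 3 cells with the most such UMIs in each library, the ratios were 1.09, 1.79, 1.84, 5.29 and 0.716 in the former gates and 0.714 and 0.353 in the latter, so the regulatory T value changed its direction. With male-type cells alone, the log2 ratio changed its direction in macrophages (-0.21), cDC2 cells (-0.72) and CD8 T cells (0.084). In mature dendritic cells it fell from 1.27 to 0.08. These KO-labelled values rest on 715 macrophages, 42 cDC2, 56 CD8 T and 22 mature dendritic cells.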

How the results depend on the processing

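No paired analysis was possible because each genotype has 1 library, and for the same reason no replicate could be left out. Over all cells, 1 member was higher by 0.5 or more in log2, in place of 0, when female-type KO-labelled cells were set against male-type WT cells. The count of members lower by 0.5 or more, 1 as reported (Hspb1), became 0 in that comparison, with no doublet removal, with 20 CPM added in place of 5, and with cells of both sex types left out. The median log2 ratio of the inducible members was 0.055 for female-type KO-labelled cells against male-type WT cells, in place of -0.04. With male-type cells alone, several values changed sign: the log2 ratio of Hspa1a and Hspa1b together was -0.72 in cDC2 cells (0.55 as reported), -0.21 in macrophages (0.15 as reported) and 0.084 in CD8 T cells (-0.52 as reported), and the median of the inducible members in mature dendritic cells was -0.18 (0.50 as reported) and in cDC2 cells -0.37 (0.32 as reported). The male-type cells labelled KO in these gates numbered 42 cDC2, 715 macrophage, 56 CD8 T and 22 mature dendritic cells. Group medians near 0 also crossed 0 under some settings. The cause was not tested. Depth limits the lymphocyte gates most: the inducible Hsp70 sums of NK and regulatory T cells rest on 20 and 27 KO-labelled UMIs.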

Other observations

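Macrophages with at least 5 inducible Hsp70 UMIs, at 5000 UMIs a cell, also differed from macrophages with none in genes that are not heat shock proteins, here given as WT and KO-labelled ratios. The lysosomal glycoprotein gene Gpnmb was 6.30 and 5.47 times as high. Hmox1, the haem oxygenase that also responds to oxidants, stood at 6.75 and 4.16, and Zfand2a, a heat shock factor target, at 4.62 and 3.45. The interferon-induced Ifit3 stood at 6.38 and 3.14, and the collagenase gene Mmp13 at 4.81 and 3.05. Genes of mitosis were at the other end, with Birc5 at 0.187 and 0.183, Cdc20 at 0.246 and 0.0776 and Ccnb2 at 0.260 and 0.157. The counts behind the latter are small, from 1 to 12 UMIs in the cells with at least 5 inducible Hsp70 UMIs. These genes were chosen after their values were seen, among the widest ratios of 7603 genes, and no test was made.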
